A study of Arabidopsis thaliana with 5 samples.

Results

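Of the 33602 genes measured in the endosperm libraries, 143 (0.426%) reached at least 200 RPKM (reads per kilobase of gene, corrected for library depth) in each of the 5 libraries. These 143 genes were chosen by that threshold alone, so their height is a description and was not tested. RNA was measured in endosperm nuclei isolated by INTACT, in which a tagged nuclear envelope protein is biotinylated in one cell type and the labelled nuclei are captured on streptavidin beads. The first 2 libraries came from Col × L*er* seeds, in which the mother was a Col plant carrying the INTACT transgenes (*PHE1::NTF* and *PHE1::BirA*) in the male-sterile *dde2* background and the pollen donor was L*er* wild type. The other 3 came from L*er* × Col seeds, in which the mother was the male-sterile *pistillata* mutant (*pi-1*, L*er* accession) and the pollen donor was the Col INTACT line. All seeds were taken at 4 days after pollination (DAP). The transgenes came through the mother in Col × L*er* and through the father in L*er* × Col, and the tag was driven by the promoter of *PHE1*, an endosperm MADS-box gene with a paternal expression bias. The study describes the replicates as biological, and its methods leave the first replicates of both crosses out of later steps because of their contamination levels. The same methods then speak of merging 3 L*er* × Col libraries, whereas the step that defines imprinted genes names 2 per cross. Whether the authors used replicate 1 of L*er* × Col is therefore unclear. The table holds this library, and it is used here. Without that library 153 genes reached the threshold, including all 143. The library numbers used here are those of the table's column names: 2 and 3 for Col × L*er*, and 1, 2 and 3 for L*er* × Col.

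Endosperm is the triploid seed tissue that feeds the embryo, and in *Arabidopsis* it grows at first as a syncytium in which nuclei divide without cell walls. RNA from purified nuclei holds transcripts that are still being made, spliced or exported, together with cytoplasmic RNA that sticks to the nuclei. Nucleoli, where ribosomal RNA is transcribed, trimmed and assembled with ribosomal proteins, are large in this tissue. RPKM divides reads by gene length and by library depth, so that a few very abundant RNAs lower the value of all other genes in the same library.

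The set consisted of 138 protein-coding genes, 2 transcribed pseudogenes, 1 lncRNA gene, 1 ncRNA gene and 1 snoRNA gene. None of the 623 tRNA genes, of the 4 annotated rRNA genes or of the 279 organelle identifiers was among them. The genes were spread over chromosomes 1 to 5, with 32, 30, 26, 13 and 42 genes. Of the summed RPKM they held 32.0% and 14.5% in Col × L*er* and 20.0%, 48.8% and 16.1% in L*er* × Col, with libraries in the order given above. The median of the 143 genes was 792 and 493 RPKM in Col × L*er* and 512, 1246 and 557 RPKM in L*er* × Col, where the medians over all genes were 1.91 and 4.47 RPKM in Col × L*er* and 8.96, 0.952 and 3.40 RPKM in L*er* × Col. The library with the largest share for these genes, replicate 2 of L*er* × Col, was also the one with the lowest median over all genes, and it held the highest value of 110 of the 143 genes. Replicate 2 of Col × L*er* was the highest library for 24 genes, and replicate 3 of Col × L*er* the lowest for 87.

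The libraries had depths of about 1.25e+07 and 2.66e+07 reads in Col × L*er* and of 2.56e+07, 2.03e+07 and 2.85e+07 reads in L*er* × Col, as recovered from the steps of the low tRNA values. With annotated exon lengths, the gene with the fewest reads still had about 1217 and 445 reads in Col × L*er* and 624, 360 and 491 reads in L*er* × Col. Counting error at 360 reads is 5.27% (SD) if every read counts independently, and it leaves out the spread from library preparation. Genes listed at 0 RPKM numbered 12393 and 1822 in Col × L*er* and 647, 10800 and 3293 in L*er* × Col, so that both replicate 2 libraries had the most. The 14 endosperm marker genes summed to 477 to 897 RPKM per library, 14 seed coat markers to 57.8 to 442 RPKM, 6 embryo markers to 44.9 to 211 RPKM and 6 photosynthesis genes to 539 to 4116 RPKM. Seed coat, embryo and photosynthesis sums were lowest in replicate 2 of L*er* × Col, and the endosperm sum was highest there through 1 gene, the bHLH gene *RGE1* with 777 of the 897 RPKM. The other 13 endosperm markers summed to 194 and 287 RPKM in Col × L*er* and to 213, 120.0 and 237 RPKM in L*er* × Col, so that replicate 2 of L*er* × Col was lowest without *RGE1*. *PHE1*, whose promoter drives the tag, had 38.1 and 29.7 RPKM in Col × L*er* and 33.9, 51.0 and 40.5 RPKM in L*er* × Col, and no endosperm marker belonged to the set. In bulk RNA of this kind, fewer cells of a type and less RNA per cell cannot be told apart.

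**Figure D1:**
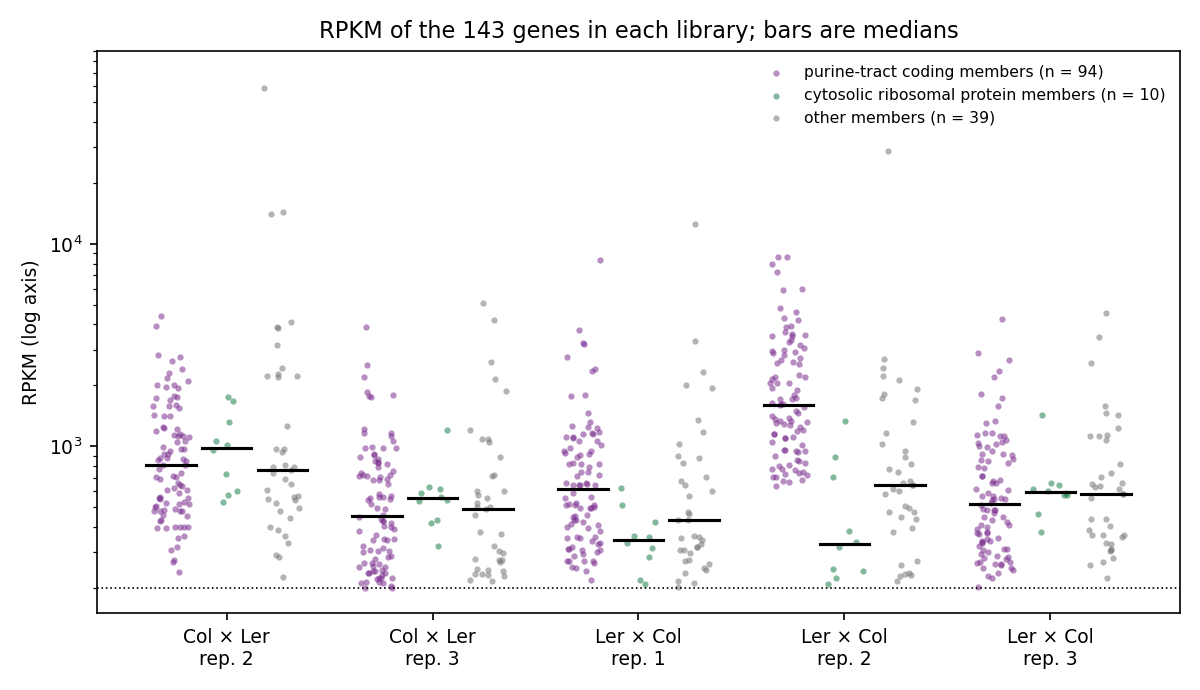
RPKM (log axis) of the 143 genes in each of the 5 libraries, as 1 point per gene, for 94 coding genes with a purine tract, 10 cytosolic ribosomal protein genes and the other 39; black bars are medians and the dotted line is the threshold of 200 RPKM. The purine-tract genes have a median of 1606 RPKM in replicate 2 of L*er* × Col, against 454 to 811 RPKM in the other libraries, whereas the ribosomal protein genes are lowest in replicates 1 and 2 of L*er* × Col.

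The largest value belonged to AT2G01021, a gene of 102 bases at chr2:6571-6672 (TAIR10.1, plus strand). It is annotated as protein-coding and starts 625 bases after the end of the 5.8S rRNA gene AT2G01020. Its RPKM was 59013 and 4205 in Col × L*er* and 12579.6, 28939 and 4568 in L*er* × Col, and it alone held 7.90% of the summed RPKM of replicate 2 of Col × L*er*. Both replicate 2 libraries were the high ones, and the crosses overlapped. All 102 bases are identical to AT3G06365 on chromosome 3, so reads of these copies cannot be told apart. The rRNA gene AT2G01020 itself was listed at 97.2 and 4.81 RPKM in Col × L*er* and at 16.5, 9.30 and 5.77 RPKM in L*er* × Col. Whether the reads of AT2G01021 come from ribosomal RNA was not tested.

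A further 3 genes shared sequence with the rDNA regions or with one another. AT2G01008 lies 532 bases before the rRNA gene AT2G01010 on chromosome 2, and AT3G41762 lies 811 bases before AT3G41768 on chromosome 3. Their sequences were 99.1% identical over 1419 bases. AT2G01008 had 3179 and 601 RPKM in Col × L*er* and 2009, 439 and 365 RPKM in L*er* × Col, and the RPKM of AT3G41762 was 1.00 to 1.22 times as high in every library. AT2G16586 matched AT2G01008 over 606 bases at 98.8% identity and had 14028.5 and 723 RPKM in Col × L*er* and 3331, 2138 and 639 RPKM in L*er* × Col, the widest range of the set (22.0-fold). Reads of such copies cannot be told apart in these values, and the 3 genes are uncertain as separate members of the set. In all, 8 of the 143 genes had a copy of at least 100 bases at 95% identity or more elsewhere in the genome. Among them, the pseudogene AT2G07783 was 99.9% identical over 1504 bases to the mitochondrial genome and had 967 and 371 RPKM in Col × L*er* and 569.9, 2216.5 and 653 RPKM in L*er* × Col. AT3G25840 shares 996 identical bases with AT3G25826, and AT5G48610 shares 1327 bases at 96.4% identity with AT5G43490, so their values are uncertain in the same way.

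Strand of counting was not given in the sources used here, and 33 of the 143 genes overlapped an annotated gene on the other strand. The lncRNA AT3G59068 was the clearest case. It overlaps AT3G59070 on the opposite strand by 678 bases, and its RPKM was 4.61 to 4.79 times that of AT3G59070 in every library. AT3G59068 had 3833 and 488 RPKM in Col × L*er* and 877, 1926 and 617 RPKM in L*er* × Col.

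Most of the coding genes carried long stretches of purines (A or G) on the coding strand. The richest 100-base window of the coding sequence held a median of 84% purines in the 137 coding genes with at least 100 coding bases, against 67% in the 26545 other coding genes. A window of at least 80% purines, a limit chosen after the data were seen and called a purine tract below, was present in 94 of the 137 (68.6%) and in 964 of all 26682 coding genes (3.61%). The longest unbroken purine run had a median of 24 bases in the set, against 12 bases in the other genes, whereas the longest run of A alone had a median of 5 bases in both. Tracts of pyrimidines, which are purine tracts of the other strand, were not frequent: the richest pyrimidine window had a median of 58% in the set and 63% in the other genes. Coding lengths were a median of 1356 bases in the set and 1065 bases in the other genes, and GC content was 44.6% and 44.1%.

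The windows of 4 coding genes of high mean RPKM, and of AT5G53800, whose window was the richest of the set, are printed 5′ to 3′ on the coding strand, from TAIR10.1 (RefSeq). Capitals mark the longest unbroken purine run within the window. AT1G60200 encodes a PWI and RNA recognition motif splicing factor, AT1G20920 a P-loop ATPase known as a DEAD-box RNA helicase, *FP3* a farnesylated metal-binding protein, AT3G25840 a protein kinase and AT5G53800 a protein annotated as nucleic acid-binding.
AT1G60200, chr1:22202230-22202329, minus strand: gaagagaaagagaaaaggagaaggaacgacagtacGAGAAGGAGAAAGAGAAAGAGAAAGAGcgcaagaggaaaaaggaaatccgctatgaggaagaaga
AT1G20920, chr1:7285741-7285840, plus strand: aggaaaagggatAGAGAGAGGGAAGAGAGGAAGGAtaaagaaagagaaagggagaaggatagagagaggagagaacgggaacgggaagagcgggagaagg
FP3 (AT5G63530), chr5:25435305-25435404, plus strand: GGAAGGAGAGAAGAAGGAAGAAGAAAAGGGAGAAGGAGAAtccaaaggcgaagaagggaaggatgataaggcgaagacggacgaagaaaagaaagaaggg
AT3G25840, chr3:9456013-9456112, minus strand: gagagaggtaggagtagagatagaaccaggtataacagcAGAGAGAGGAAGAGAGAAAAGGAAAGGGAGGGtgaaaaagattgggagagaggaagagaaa
AT5G53800, chr5:21848558-21848657, plus strand: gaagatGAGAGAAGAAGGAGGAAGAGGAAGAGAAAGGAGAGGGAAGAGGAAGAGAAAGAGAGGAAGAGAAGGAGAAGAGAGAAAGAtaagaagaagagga
These windows hold 88%, 94%, 91%, 88% and 98% purines, with unbroken runs of 27, 23, 40, 32 and 80 bases. *FP3* had 4396 and 1787 RPKM in Col × L*er* and 3212, 8643 and 2352 RPKM in L*er* × Col. AT3G25840 had 1742 and 1775 RPKM in Col × L*er* and 2424, 5993 and 2212 RPKM in L*er* × Col. AT5G53800, with the richest window, had 1750.3 and 883 RPKM in Col × L*er* and 1019, 3569 and 995 RPKM in L*er* × Col. AT5G60030, an uncharacterized protein with a window of 89%, had 2295 and 1759 RPKM in Col × L*er* and 2357, 5888 and 1727 RPKM in L*er* × Col. All 4 genes were highest in replicate 2 of L*er* × Col.

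For contrast, *nPAP* and *RBCS1A* are set genes without a tract. The richest window that lies within 1 exon holds 65% purines in *nPAP* and 59% in *RBCS1A*, with runs of 7 and 8 bases.
nPAP (AT4G32850), chr4:15853085-15853184, plus strand: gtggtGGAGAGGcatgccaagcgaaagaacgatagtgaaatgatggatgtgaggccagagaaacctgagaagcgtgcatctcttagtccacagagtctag
RBCS1A (AT1G67090), chr1:25048566-25048665, minus strand: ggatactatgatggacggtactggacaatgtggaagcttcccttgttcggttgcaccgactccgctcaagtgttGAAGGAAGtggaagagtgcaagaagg
Codons made of purines alone encode glutamate (GAA, GAG), lysine (AAA, AAG), arginine (AGA, AGG) and glycine (GGA, GGG). They made up a median of 29.0% of codons in the set and 19.0% in the other coding genes. Glutamate codons were 11.0% and 6.27%, and lysine codons 10.8% and 6.25%, in the set and in the other genes.

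The share of genes that reached the threshold was larger at higher purine shares of the window. Of the 8288 genes whose richest window held under 65% purines, 13 (0.157%) belonged to the set. Of the genes at 80 to 84%, 32 of 711 (4.50%) belonged to it, of those at 85 to 89%, 40 of 184 (21.7%), and of those at 90% or more, 22 of 69 (31.9%). No such order was present for pyrimidine windows, with 111 of 15813 genes (0.702%) under 65%, 0 of 86 genes at 85 to 89% and 0 of 13 genes at 90% or more. Of all protein-coding genes 0.517% belonged to the set, so a count of 0 among so few genes says little. The share was lower for A content without a purine tract: of the 740 genes with a window of at least 50% A but no purine tract, 5 (0.676%) belonged to the set, and of the 537 genes with a purine tract but no such A window, 28 (5.21%). Where both were present, 66 of 427 genes (15.5%) belonged to it, and where neither was, 38 of 24978 (0.152%).

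**Figure D2:**
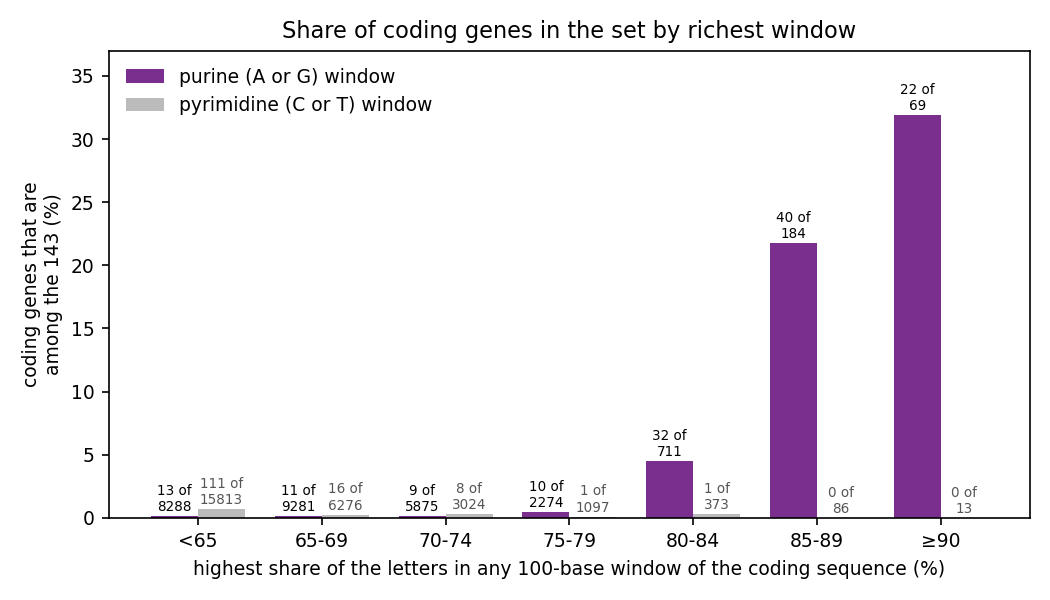
Percentage of coding genes that belong to the set of 143, by the highest share of purines (purple) or pyrimidines (grey) in any 100-base window of the coding sequence; the numbers above the bars are set genes of all genes. The purple bars reach 21.7% at 85 to 89% purines and 31.9% at 90% or more, and the grey bars stay at or below 0.702%.

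In each library, the median RPKM over all coding genes was also higher at high purine shares. The same values chose the set, and its genes are included, so these medians are a description. Genes at 90% purines or more had a median of 122 and 73.5 RPKM in Col × L*er* and of 111, 206 and 80.9 RPKM in L*er* × Col. Genes under 65% had medians of 3.24 and 6.44 RPKM in Col × L*er* and of 9.97, 1.34 and 5.46 RPKM in L*er* × Col. The step was widest in replicate 2 of L*er* × Col and was present in all 5 libraries. For pyrimidines, the 13 genes at 90% or more had medians of 11.2 and 10.7 RPKM in Col × L*er* and of 19.6, 7.01 and 15.0 RPKM in L*er* × Col. Genes under 65% pyrimidines had medians of 4.59 and 8.25 RPKM in Col × L*er* and of 10.8, 1.97 and 7.38 RPKM in L*er* × Col. At the threshold of 200 RPKM in a single library, 35.9% and 27.1% of the coding genes had a purine tract in Col × L*er*, and 61.8%, 67.9% and 26.6% in L*er* × Col. Without replicate 2 of L*er* × Col, 95 of the 158 coding genes at the threshold in the other 4 libraries had a tract (60.1%), and without replicate 1 of that cross 94 of 147 (63.9%).

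**Figure D3:**
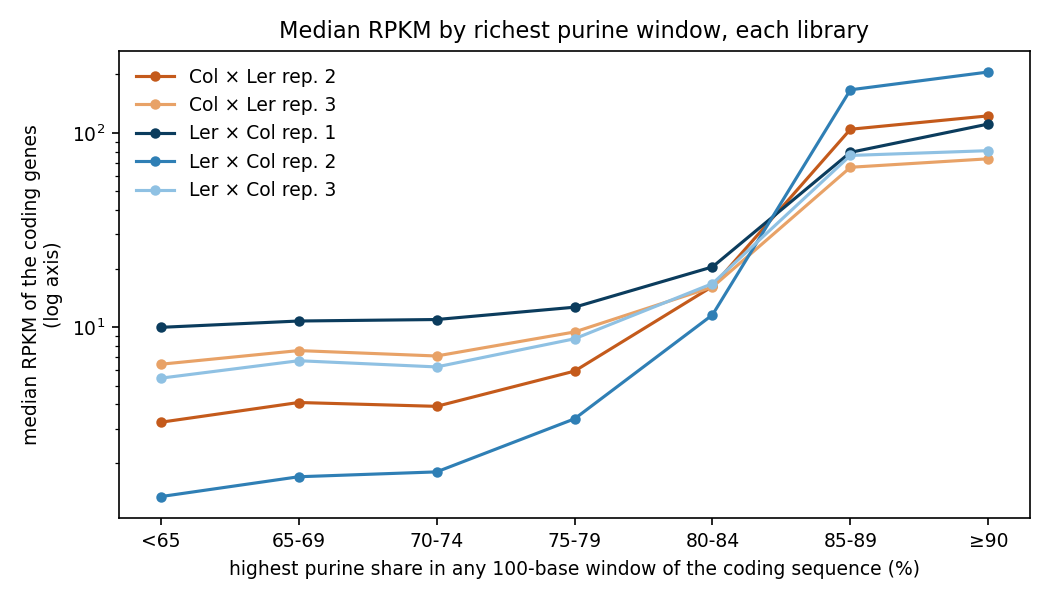
Median RPKM (log axis) of all coding genes, by the highest purine share in any 100-base window of the coding sequence, with 1 line per library. All 5 lines climb from 80% purines on, to medians of 73.5 to 206 RPKM at 90% or more, and replicate 2 of L*er* × Col has both the lowest value at the left end (1.34 RPKM) and the highest at the right end.

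Not every gene with a high purine share had a high value. Of the 69 genes at 90% or more, 47 stayed below 200 RPKM in at least 1 library. A value of 100 RPKM in every library was reached by 29 of the 69 (42.0%), against 50 of the 8288 genes under 65% (0.603%). The coding sequence of AT5G03710 holds a run of 190 purines, and its RPKM was 46.0 and 5.65 in Col × L*er* and 12.7, 22.0 and 7.41 in L*er* × Col. *FAF1*, with a window of 96%, had 0.0758 and 6.54 RPKM in Col × L*er* and 2.68, 0.936 and 0.200 RPKM in L*er* × Col.

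Genes with and without a tract differed in which library was highest. Of the 94 set genes with a tract, 93 were highest in replicate 2 of L*er* × Col, with a median that was 1.61 on the log2 scale above replicate 3 of the same cross. The exception was AT1G15200, with 585 and 1225 RPKM in Col × L*er* and 516, 775 and 1577 RPKM in L*er* × Col. Of the 43 without, 14 were highest in that library, 21 in replicate 2 of Col × L*er*, 7 in replicate 3 of L*er* × Col and 1 in replicate 3 of Col × L*er*. Outside the set, 259 of the 870 tract genes (29.8%) and 362 of the 25675 coding genes without a tract (1.41%) were highest in replicate 2 of L*er* × Col. These 870 tract genes had medians of 17.4 and 17.7 RPKM in Col × L*er* and of 22.4, 13.0 and 18.1 RPKM in L*er* × Col.

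RNA-binding and splicing factors formed the largest named group, with 11 of the 199 annotated genes of the kind. AT1G60200, whose window is printed above, had 2414 and 2509 RPKM in Col × L*er* and 3768, 7996 and 2881 RPKM in L*er* × Col. *DOT2*, a SART-1 family protein of the spliceosome, had 973 and 714 RPKM in Col × L*er* and 1181, 2613 and 860.1 RPKM in L*er* × Col. Each of these genes was highest in replicate 2 of L*er* × Col, and for AT1G60200 all 3 L*er* × Col libraries lay above both Col × L*er* libraries. The glycine-rich RNA-binding proteins *GRP7* and *GRP8* (annotated as *CCR1*), which bind their own and other transcripts in a circadian feedback loop, behaved in the opposite way. *GRP7* had 4107 and 2622 RPKM in Col × L*er* and 1030.1, 1027 and 3451 RPKM in L*er* × Col. *CCR1* had 2202 and 2143 RPKM in Col × L*er* and 896, 816 and 2583 RPKM in L*er* × Col. For both, replicates 1 and 2 of L*er* × Col were the low libraries, and neither gene has a purine tract (77% and 70%).

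Nucleolar proteins and factors of ribosome assembly contributed 8 of 56 annotated genes. *NOP56*, a core protein of the snoRNPs that guide rRNA methylation, had 2111 and 833 RPKM in Col × L*er* and 1117, 3576 and 1009 RPKM in L*er* × Col. *NAP57*, the pseudouridine synthase of the other class of snoRNPs, had 1546 and 684 RPKM in Col × L*er* and 723, 2262 and 685 RPKM in L*er* × Col. AT1G12830, annotated as nucleolin, had 2004 and 719.7 RPKM in Col × L*er* and 1154, 4596 and 911 RPKM in L*er* × Col. All 3 were high in the replicate 2 libraries of both crosses. AT5G66540, a protein of the U3 snoRNP that cuts the rRNA precursor, had 637 and 300.3 RPKM in Col × L*er* and 273, 957 and 342 RPKM in L*er* × Col.

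The NOP56-like family showed how levels and tracts lay within one family. Of its 5 genes, *NOP56* and AT3G05060 belonged to the set. AT3G05060 had 879 and 421 RPKM in Col × L*er* and 641, 1493 and 487 RPKM in L*er* × Col. AT5G27120 missed it in 1 library only, with 532 and 223 RPKM in Col × L*er* and 202, 596 and 186 RPKM in L*er* × Col. AT3G12860, which has the richest window of the 5 (94%), reached 103 to 331 RPKM, and AT5G27140 (81%) reached 0 to 5.06 RPKM. The order of the levels departed from the order of the windows through AT3G12860 alone. *NOP56* (90%), AT3G05060 (89%), AT5G27120 (88%) and AT5G27140 (81%) came in the same order by window and by level.

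Translation factors were represented by all 4 genes annotated as eIF-2 family proteins, which resemble the ribosome-joining factor eIF5B. AT1G76810 had 1589 and 1163 RPKM in Col × L*er* and 1464, 3686 and 1126.5 RPKM in L*er* × Col. AT1G76720 had 1147 and 1158 RPKM in Col × L*er* and 1786, 3524 and 1338 RPKM in L*er* × Col. The other 2, AT1G21160 and AT1G76820, ranged from 653 to 2209 RPKM. All 4 have tracts, with windows of 82 to 87%, and all 4 were highest in replicate 2 of L*er* × Col.

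Cytosolic ribosomal protein genes are among the most abundant mRNAs of growing plant cells, and 10 of the 316 found by words of the annotation belonged to the set. That search may be incomplete: it left out AT5G18380, a set gene annotated with a ribosomal protein S5 domain. It may also be too wide, since only 19 genes were set apart by words as plastid or mitochondrial, so the 316 may include organellar ones. The values of the set's ribosomal protein genes follow. Their median was 985 and 553 RPKM in Col × L*er* and 346, 328 and 594 RPKM in L*er* × Col, against 76.0 and 75.4 RPKM and 38.4, 25.1 and 78.1 RPKM over all 316 in the same libraries. *RPL18* had 599 and 416 RPKM in Col × L*er* and 209, 209 and 462 RPKM in L*er* × Col. AT3G60245, a zinc-binding ribosomal protein, had 1677 and 1207 RPKM in Col × L*er* and 624, 704 and 1434 RPKM in L*er* × Col. Replicates 1 and 2 of L*er* × Col were the low libraries for both, as for *GRP7*. None of the 9 genes long enough to measure has a purine tract. The acidic ribosomal protein genes AT2G27720 and AT2G27710, with 33-base purine runs, were the exceptions within the group: they were higher in replicate 2 than in replicate 3 of L*er* × Col. AT2G27720 had 1756 and 537 RPKM in Col × L*er* and 512, 1342 and 577 RPKM in L*er* × Col.

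Chromatin proteins included 3 of the 4 genes with a DEK domain, which bind histones and DNA. AT4G26630 had 1701 and 1862 RPKM in Col × L*er* and 2766, 3887 and 1810.5 RPKM in L*er* × Col. AT5G55660 had 995 and 1127 RPKM in Col × L*er* and 1767, 3054 and 1307 RPKM in L*er* × Col. AT5G63550 had 1932 and 707 RPKM in Col × L*er* and 923, 3526 and 714 RPKM in L*er* × Col. The fourth gene of the family, AT3G48710, was at 18.2 and 18.7 RPKM in Col × L*er* and at 17.5, 20.1 and 21.3 RPKM in L*er* × Col, the smallest range of the 4. It was below the other 3 in every library.

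Other chromatin genes lay closer to the threshold. *HTA11*, a histone variant H2A.Z gene, had 560 and 883 RPKM in Col × L*er* and 474, 259 and 1128 RPKM in L*er* × Col. *SWC2*, a subunit of the SWR1 complex that deposits this variant, had 397 and 200.2 RPKM in Col × L*er* and 271, 704 and 225 RPKM in L*er* × Col. *RING1A*, of Polycomb repressive complex 1, had 499 and 241 RPKM in Col × L*er* and 332, 1105 and 249 RPKM in L*er* × Col. *HTA11* was lowest where *SWC2* and *RING1A* were highest, in replicate 2 of L*er* × Col. The MADS-box gene *AGL31* had 442 and 299 RPKM in Col × L*er* and 432, 505 and 332 RPKM in L*er* × Col. It was the only 1 of 118 MADS-box genes in the set (0.847%), against 0.426% of all genes.

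The cytosolic HSP90 chaperones *HSP81-2*, *HSP81-3* and *Hsp81.4* all belonged to the set, and the heat-induced gene *HSP90.1* did not. *HSP81-3* had 2832 and 827 RPKM in Col × L*er* and 1254, 4812 and 1124 RPKM in L*er* × Col. *HSP90.1* had 151 and 47.1 RPKM in Col × L*er* and 52.0, 190.1 and 77.3 RPKM in L*er* × Col. The libraries came in the same order of height at the top for both genes, with the replicate 2 libraries highest. The window of *HSP81-3*, at 90% purines, is printed as the example of the family.
HSP81-3 (AT5G56010), chr5:22682472-22682571, plus strand: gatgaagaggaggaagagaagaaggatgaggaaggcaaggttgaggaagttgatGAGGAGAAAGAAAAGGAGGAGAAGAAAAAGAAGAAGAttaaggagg
The run in capitals is 37 bases long. The organellar and endoplasmic HSP90 genes *CR88*, *SHD* and *Hsp89.1*, with windows of 76 to 79%, ranged from 8.79 to 69.8 RPKM, and none of them was highest in replicate 2 of L*er* × Col.

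**Figure D4:**
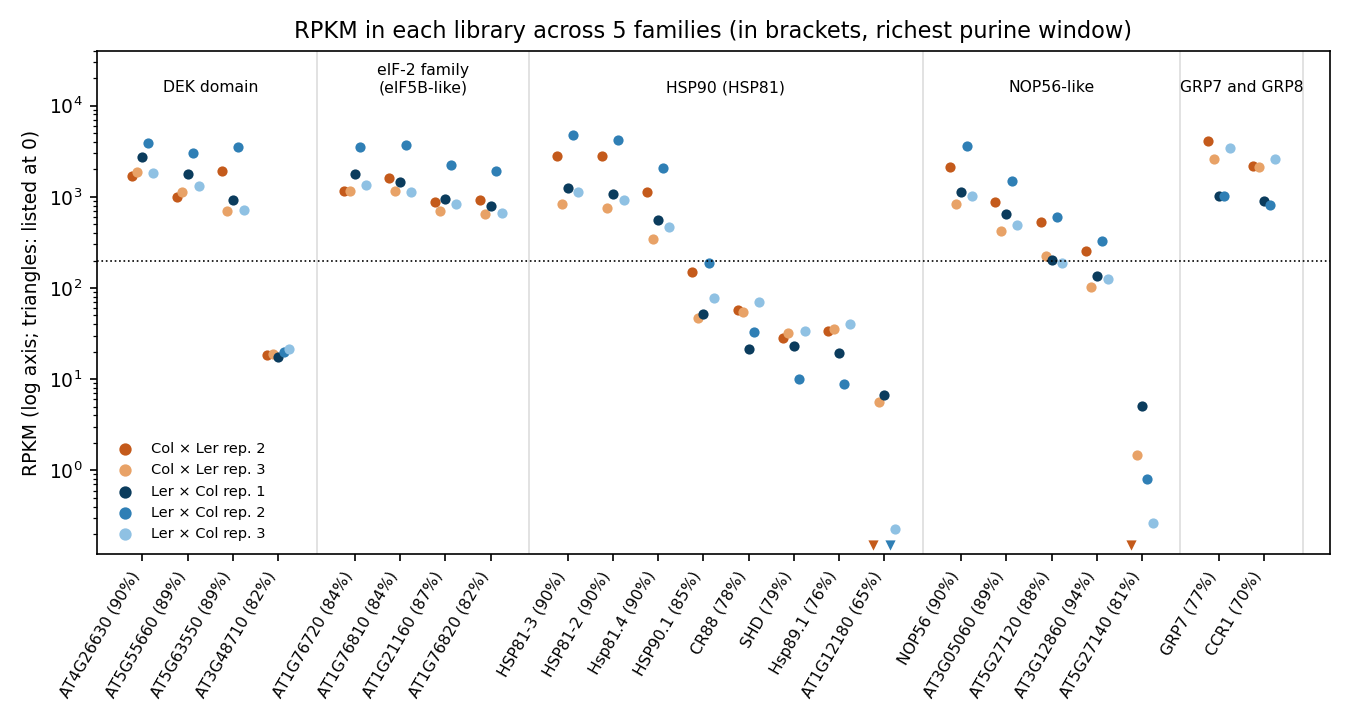
RPKM (log axis) of every gene of 5 families, 1 point per library with Col × L*er* in orange and L*er* × Col in blue; the richest purine window of the coding sequence stands in brackets and the dotted line is 200 RPKM. AT3G48710 sits between 17.5 and 21.3 RPKM, below the other 3 DEK genes in every library, and *GRP7* and *CCR1* are the set genes shown in which replicate 2 of L*er* × Col is the lowest library.

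DnaJ-domain proteins, which act as partners of HSP70 chaperones, contributed 5 of 133 genes, all with a tract. AT1G74250 had the highest mean of them, with 848 and 735 RPKM in Col × L*er* and 889, 3364 and 922 RPKM in L*er* × Col. AT4G36520 was above it in replicate 3 of Col × L*er* (862 RPKM) and replicate 1 of L*er* × Col (1245 RPKM). Replicate 2 of L*er* × Col was the highest library for all 5.

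Dehydrins, hydrophilic proteins known from drying tissues and cold, contributed 2 of 9 genes. AT1G54410 was the second gene of the set by mean, with 3930.35 and 3906 RPKM in Col × L*er* and 8342, 8592 and 4243 RPKM in L*er* × Col. *ERD14* had 1965 and 543 RPKM in Col × L*er* and 663, 2146 and 423 RPKM in L*er* × Col. The crosses did not overlap for AT1G54410 and did for *ERD14*. The dehydrin *RAB18*, outside the set, was listed at 809 RPKM in replicate 2 of Col × L*er* and at 2.38 RPKM in replicate 3, against 5.44, 4.12 and 9.91 RPKM in L*er* × Col, so that 1 library alone was high.

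A few genes of the set are known from other parts of the plant or seed. *RBCS1A*, the small subunit of Rubisco and the only photosynthesis gene of 61 in the set, had 570.4 and 1869.5 RPKM in Col × L*er* and 643, 235 and 1428 RPKM in L*er* × Col. *LCR69* and *LCR84*, small cysteine-rich secreted proteins, were the only 2 of 80 LCR genes in the set. *LCR69* had 2214 and 1206 RPKM in Col × L*er* and 271, 499 and 1131 RPKM in L*er* × Col. The other 5 photosynthesis markers summed to 1266 and 2246 RPKM in Col × L*er* and to 1223, 304 and 1488 RPKM in L*er* × Col, with the highest and the lowest value in the same libraries as for *RBCS1A*. The part of RNA from other tissue in these values was not tested.

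Other regulators of transcription and RNA reached high values as well. *HOS15*, a WD40 repressor that acts with histone deacetylases, had 1764 and 984 RPKM in Col × L*er* and 1165, 3928 and 1169 RPKM in L*er* × Col. *STRS1*, a DEAD-box RNA helicase of stress responses, had 2642 and 984 RPKM in Col × L*er* and 1157, 3270.3 and 1030 RPKM in L*er* × Col. *DDL*, a forkhead-associated domain protein of microRNA biogenesis, had 1224 and 555 RPKM in Col × L*er* and 711, 2556 and 605 RPKM in L*er* × Col. These 3 genes were high in both replicate 2 libraries and close to one another in the remaining 3. *SKIP*, a splicing and transcription factor, *GTB1*, an SPT6-like elongation factor, *TAF2*, a subunit of TFIID, and *CHR23*, a SWI2/SNF2 remodeller, lay between 225 and 1321 RPKM. All 4 carry a tract and were highest in replicate 2 of L*er* × Col. The PWWP-domain protein AT5G40340, with a window of 97%, had 432 and 844 RPKM in Col × L*er* and 978, 1593 and 789 RPKM in L*er* × Col. *FKBP53*, a histone chaperone, had the smallest spread of those named here, with 718 and 437 RPKM in Col × L*er* and 511, 1016 and 548 RPKM in L*er* × Col.

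Several genes without a tract had replicate 3 of L*er* × Col as their highest library. *MOS11*, which acts in mRNA export, had 650.1 and 1087 RPKM in Col × L*er* and 296, 236 and 1144 RPKM in L*er* × Col. *ANNAT7*, a calcium-binding annexin, had 545 and 715 RPKM in Col × L*er* and 344, 376 and 1587 RPKM in L*er* × Col. *AGP24*, an arabinogalactan protein of the cell surface, had 361 and 502 RPKM in Col × L*er* and 331, 217 and 816 RPKM in L*er* × Col. In these genes the replicate 3 libraries of both crosses were the high ones. *SKIP2*, an F-box protein, had instead 2452 and 460.2 RPKM in Col × L*er* and 462, 1692 and 585 RPKM in L*er* × Col, and was high in the replicate 2 libraries. The snoRNA AT3G47347 had 1259.9 and 217 RPKM in Col × L*er* and 317, 230.1 and 223 RPKM in L*er* × Col, so that replicate 2 of Col × L*er* alone was high. The ncRNA AT1G15405 varied less, with 527 and 245 RPKM in Col × L*er* and 431, 656 and 406 RPKM in L*er* × Col.

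Several families that are commonly abundant were absent from the set. None of 37 tubulin and actin genes, 12 ubiquitin genes, 8 translation elongation factor genes, 31 aquaporin genes, 137 lipid transfer protein genes or 21 seed storage and oleosin genes reached the threshold in every library. Over all genes 0.426% reached it, so a count of 0 in families of these sizes is near that share. The highest minimum was 169.9 RPKM among the lipid transfer protein genes and 149.8 RPKM among the elongation factor genes. It was 15.3 RPKM among the aquaporins and 20.4 RPKM among the seed storage and oleosin genes.

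At the lower edge of the set, AT4G12770, a DnaJ-domain protein, *SWC2*, *GRF10*, AT2G24990 and *RANBP1* had their lowest values between 200.03 and 203 RPKM. The genes just outside were the ribosomal protein gene AT3G11120, *RPL34*, *PLIM2b*, AT4G12740 and *NF-YC2*, with lowest values between 195 and 199.7 RPKM. Genes that missed the threshold in 1 library only numbered 2 where Col × L*er* replicate 2 was the low library and 12 where replicate 3 was. For L*er* × Col they numbered 10, 27 and 4 in replicates 1, 2 and 3. The 12 missing in replicate 3 of Col × L*er* included *RGE1* (*ZHOUPI*), a regulator of endosperm breakdown, with 532 and 189.9 RPKM in Col × L*er* and 386, 777 and 291 RPKM in L*er* × Col.

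The 143 genes varied between libraries. The highest library was a median of 3.51 times the lowest, from 1.57 to 22.0 times, and 37 genes stayed within 3-fold. The steadiest was *nPAP*, a nuclear poly(A) polymerase, with 790.2 and 504 RPKM in Col × L*er* and 599, 674 and 706 RPKM in L*er* × Col (SD of log2 RPKM 0.25, n = 5). *AGL31*, *VAD1*, *CID7* and AT1G70620 followed, with SDs of 0.31 to 0.42. After AT2G16586, the widest were AT2G01021, AT3G41762, AT1G68945 and AT2G01008, with SDs of 1.39 to 1.66. Across the 143 genes, log2 RPKM correlated most closely between the replicate 3 libraries of the 2 crosses (Pearson's r = 0.95) and least between replicate 3 of Col × L*er* and replicate 2 of L*er* × Col (r = 0.50). These r values describe genes of the same libraries, which are not independent.

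To see whether the genes differed between the crosses, limma was fitted to log2(RPKM + 1) over the 25579 genes that 2 or more libraries listed at 1 RPKM or above. All 143 genes passed that filter, and none was called at an adjusted p under 0.05 by limma with Benjamini-Hochberg adjustment, where 2 of all genes tested were called (0.00782%). At an unadjusted p under 0.05, the number was again 0 of 143, against 266 of all genes tested (1.04%). The standard error of the log2 fold change had a median of 0.99 over the set. It followed a gene's mean level more than its own spread: *GRP7* and AT2G16586 had 1.41 and 1.42, with SDs of log2 RPKM of 0.96 and 1.82. With this fit and with 2 and 3 libraries, differences of the size seen here were not detectable. In simulated data with the spread of the real values, 0 of 200 genes with an 8-fold change were called. The log2 fold change of Col × L*er* over L*er* × Col had a median of -0.30 in the set and of 0.10 over all genes tested. In the set, 39 genes lay above 0 and 104 below. The sign of the median rested on single libraries: it was 0.17 in the set and -0.34 over all genes without replicate 2 of L*er* × Col, and 0.17 and -0.06 without replicate 3 of Col × L*er*.

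The values of the crosses overlapped for most of the 143 genes. In 3 of the 143 genes both Col × L*er* libraries lay above all L*er* × Col libraries, against 6.17% of all genes tested, and in 15 of the 143 (10.5%) both lay below, against 1.92%. The same values chose the set, so these shares are a description. AT1G68945, a gene of unknown function, was the widest of the 3, with 14431 and 5099 RPKM in Col × L*er* and 1933, 1165 and 1463 RPKM in L*er* × Col. Its log2 fold change was 2.53 (SE 1.60; limma adjusted p = 0.999966). *LCR69*, whose values stand above, had a log2 fold change of 1.61 (SE 1.06), and AT5G18380, annotated with a ribosomal protein S5 domain, one of 1.01 (SE 0.92), and neither was called.

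Of the 15 genes that were lower in Col × L*er*, 13 carry a purine tract, which 68.6% of the coding genes of the set do. These were 13.8% of the 94 tract genes of the set, and 73 of the 819 tract genes tested outside it (8.91%) were lower in the same way. They included AT1G54410, AT1G60200, AT1G20920, AT3G25840, AT5G55660 and *PRP40A*, a splicing factor that binds the polymerase tail. AT1G20920 had 2012 and 2201 RPKM in Col × L*er* and 3249, 7257 and 2669 RPKM in L*er* × Col. Its fold change was -0.92 on the log2 scale (SE 1.61). For AT1G20920, replicate 2 of L*er* × Col stood apart from the others. For AT1G54410 replicates 1 and 2 of L*er* × Col were close to each other, and replicate 3 lay near the Col × L*er* libraries. The log2 fold change was a median of -0.39 for the 94 tract genes of the set, -0.21 for 819 tract genes tested outside it, and 0.29 for the 43 coding genes without a tract. Among the 10 ribosomal protein genes all were positive, from 0.29 to 1.04. None of these groups was tested as a group.

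The upstream regions were searched for AAACCCTA (the telo box), TGGGCC or TGGGCT (site II), TATAAA and CACGTG, of which the telo box and site II are known from genes of the translation apparatus. The windows ran from 250 bases before to 50 after each annotated gene start, both strands were read, and none of these motifs contains another. Site II letters were present in 67 of 138 promoters of the coding genes (48.6%) and in 22.0% of all 26711 coding promoters. The telo box was present in 12 of 138 (8.70%) and in 6.17% of all. TATAAA was present in 53.6% and 52.6%, and CACGTG in 7.25% and 7.79%. Among the 10 ribosomal protein genes of the set, 9 had site II letters and 2 a telo box, and among the 8 nucleolar and ribosome assembly genes the numbers were 6 and 3. Over all 316 ribosomal protein genes the shares were 66.5% and 38.6%. Site II letters were present in 52.1% of the 94 promoters of set genes with a purine tract, in 40.9% of the 44 without, and in 24.8% of the 870 tract genes outside the set.

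The 250 bases upstream of *NOP56* and of the ribosomal protein gene AT5G56710 show these letters close to the gene start, in capitals on either strand, from TAIR10.1.
NOP56 (AT1G56110), chr1:20986953-20987202, minus strand: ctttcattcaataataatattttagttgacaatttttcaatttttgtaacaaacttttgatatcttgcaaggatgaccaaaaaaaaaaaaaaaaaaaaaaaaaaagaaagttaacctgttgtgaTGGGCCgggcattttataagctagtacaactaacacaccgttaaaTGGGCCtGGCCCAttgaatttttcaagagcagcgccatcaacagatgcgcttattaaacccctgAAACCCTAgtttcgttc
AT5G56710, chr5:22944994-22945243, minus strand: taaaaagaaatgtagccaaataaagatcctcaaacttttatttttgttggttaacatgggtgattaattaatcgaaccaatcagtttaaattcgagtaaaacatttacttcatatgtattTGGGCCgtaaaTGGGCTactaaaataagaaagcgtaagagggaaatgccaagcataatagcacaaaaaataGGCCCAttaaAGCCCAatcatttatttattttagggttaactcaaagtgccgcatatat
*NOP56* has 3 site II matches and 1 telo box in this stretch, and AT5G56710 has 4 site II matches and no telo box. *NOP56* was highest in replicate 2 of L*er* × Col, and AT5G56710 had 733 and 617 RPKM in Col × L*er* and 316, 382 and 659 RPKM in L*er* × Col. A match of letters describes the sequence and says nothing of binding.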

How the data were processed

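The deposited table holds RPKM per gene and library, which the authors made from paired-end reads of poly(A) RNA; the submitters' processing notes name TopHat2 2.1 and the TAIR10 genome. The counter, the gene lengths and the strand setting were not given in the sources used here. All 5 columns were assigned to a library (0 left out). The 143 genes and all gene lists were chosen with earlier results of these data known.

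The crosses were fitted on log2(RPKM + 1) by limma 3.58.1 (R 4.3.3) with a variance trend. Genes entered the fit when 2 or more libraries listed them at 1 RPKM or above, and p-values were adjusted by Benjamini-Hochberg over these 25579 genes. These p-values concern these libraries only. The variance behind them was pooled over genes of similar mean level, so they do not measure each gene's own spread between libraries. Without the variance trend, AT1G68945, *LCR69* and AT1G20920 all had the same standard error of 1.06. The fit was tested on simulated data. With the spread of the real values, it called 0 of 200 genes with a planted 8-fold change and 148 of 200 with a 64-fold change. At 0.25 times that spread, it called 198 of 200 genes with an 8-fold change. Fold changes are on the log2(RPKM + 1) scale.

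Depth was recovered from tRNA genes, whose RPKM times exon length stepped by 1 read (92.6% to 97.8% of 27 to 259 values within 0.03 reads). Gene sequences came from RefSeq TAIR10.1, to which all 143 genes matched, with Python 3.11.15, pandas 2.3.3 and NumPy 2.4.6. The windows of 100 bases lie in the longest annotated coding sequence. A copy was at least 100 bases at 95% identity.

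Genes were named by mean RPKM (10 highest), nearness to the threshold (5 on each side), spread (5 at each end), rank in their family (2 highest) and marker lists. Further genes were named after their values were seen. The alternatives varied the pseudocount, filter, scaling, variance trend, replicate block, RPKM threshold, tract limit and each library.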

Additional observations from a re-analysis of the deposited data

How the results depend on the processing

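The number of genes depended on the threshold. With 100 RPKM in every library, 344 genes passed (327 coding, 44 ribosomal protein genes). With 300 RPKM, 88 passed (85 coding, 6 ribosomal), and with 500 RPKM, 51 passed (51 coding, 2 ribosomal and 5 nucleolar). With each library rescaled to the same sum, 254 genes passed (241 coding, 30 ribosomal), and with scaling by the median ratio 152 did, 112 of them among the 143 (24 ribosomal). Leaving out each library gave 145 to 170 genes. Tracts from 85% purines, a limit added after the data were seen, were present in 62 genes of the set. With the tract limit used elsewhere in the text, 94 genes of the set had a tract, and leaving out each library gave 94 to 100.

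Calls by limma over all genes numbered 7 with a pseudocount of 0.1, 6 with a pseudocount of 5, without a filter or after rescaling to the same sum, and 0 with quantile normalization or without the variance trend. Leaving out each library gave 0 to 86. Within the set, calls stayed at 0 under all of these. A fit with a replicate block called 86 genes, 1 of them in the set: AT1G68945 (log2 fold change 2.72, limma adjusted p = 0.00316). Only replicates 2 and 3 are shared by the crosses, and the Col × L*er* libraries carry other numbers in their titles than in the column names. Deviations from the cross means correlated with r = 0.44 for replicate 2 and 0.02 for replicate 3. The 2 Col × L*er* deviations mirror each other, and those of L*er* × Col include replicate 1, so these r values cannot decide on pairing. Across the 143 genes, libraries of the 2 crosses correlated with r = 0.95 for replicate 3 and 0.58 for replicate 2. Whether the numbers mark shared batches is not known, and the main fit did not pair the samples. The median log2 fold change of the set ranged from -0.82 to 0.17 over the alternatives. The cause of these differences was not tested.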

Other observations

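Among genes that missed the threshold in 1 library only, *WRI1*, a transcription factor of seed oil synthesis, had 969 and 177 RPKM in Col × L*er* and 265, 1564 and 318 RPKM in L*er* × Col. *CAB1*, a light-harvesting protein gene, missed it in replicate 2 of L*er* × Col and had 728 and 1147 RPKM in Col × L*er* and 824, 179.6 and 939.8 RPKM in L*er* × Col. Photosynthesis, seed coat and embryo marker sums were lowest in replicate 2 of L*er* × Col, as was the sum of the endosperm markers without *RGE1*. Of the 27 genes that missed the threshold in that library alone, 4 were counted as cytosolic ribosomal protein genes. The count went by words of the annotation and left out AT3G06700, annotated as a ribosomal L29e family protein.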
